A study of Mus musculus with 12 samples.

Results

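The C/EBP (CCAAT/enhancer-binding protein) family was followed in the liver transcriptome of exercised mice. Its members were the rows of the deposited count table with the symbols Cebpa, Cebpb, Cebpd, Cebpe, Cebpg and Cebpz, 6 of 17432 genes. Livers came from male wild-type (WT) C57BL/6J mice, a common inbred strain, 8 to 10 weeks old. Both groups had their feeding synchronized for 3 days with daily treadmill acclimation, were given food at 9 am and had it removed at 12 pm. The Exercise group of 6 mice then ran at 14 m/min for 3 hours, while the Sedentary group of 6 mice stayed at rest, also without food. All livers were collected at the same time, so each mouse was seen at a single time point. The study asked how exercise and feeding control lipoprotein lipase activity and triglyceride uptake of tissues through angiopoietin-like (ANGPTL) proteins. Within it, C/EBPα was examined as a regulator of hepatic Angptl8. The evidence included its protein level, hepatic Cebpa knockout, public ChIP-seq data and Cebpa knockdown in rat hepatocytes, which RNA levels do not replace. The paper also measured liver RNA of candidate factors by RT-PCR. It reported that, of these, Cebpa alone responded to both fasting and exercise.

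C/EBP proteins bind DNA as dimers through a basic leucine zipper (bZIP), and members pair with each other and with other bZIP factors. C/EBPα keeps hepatocytes differentiated and drives genes of glucose, urea and lipid metabolism. C/EBPβ and C/EBPδ are inducible by hormones, cAMP and cytokines, and C/EBPβ is known for gluconeogenic and acute phase genes. C/EBPγ lacks a transactivation domain and acts mainly as a dimer partner, C/EBPε is known from granulocytes, and C/EBPζ (Cebpz) shares the name but not the leucine zipper. Long and short proteins of Cebpa and of Cebpb are made from the same mRNA, so RNA-Seq does not separate them.

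The promoters are shown for the members that have an entry in the RefSeq promoter table of GRCm38.p6, because Cebpa and Cebpb moved in opposite directions and Cebpg, a dimer partner of both, lies beside Cebpa. Cebpd, Cebpe and Cebpz have no entry in that table. Each sequence is the 250 bases before the RefSeq start of the gene, from which distances are counted, 5′ to 3′ on the strand of the gene, at chr7:35119043-35119292 (plus strand, Cebpa), chr2:167688665-167688914 (plus strand, Cebpb) and chr7:35056567-35056816 (minus strand, Cebpg). The RefSeq start of Cebpg lies inside the GENCODE gene whose coordinates are given for the members, so 7 bases of that window are within the gene there. Capitals mark the matches, on either strand, to the 3 motifs searched, which were TTGCG (reverse complement CGCAA, the core of C/EBP sites), TGACG (reverse complement CGTCA, the core of cAMP response elements) and CCAAT (reverse complement ATTGG, the CCAAT box).
Cebpa: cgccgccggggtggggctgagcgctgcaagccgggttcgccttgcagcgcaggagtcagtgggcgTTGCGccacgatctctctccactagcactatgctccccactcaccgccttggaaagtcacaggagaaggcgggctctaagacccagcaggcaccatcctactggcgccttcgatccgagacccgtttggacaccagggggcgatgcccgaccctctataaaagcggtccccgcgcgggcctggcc
Cebpb: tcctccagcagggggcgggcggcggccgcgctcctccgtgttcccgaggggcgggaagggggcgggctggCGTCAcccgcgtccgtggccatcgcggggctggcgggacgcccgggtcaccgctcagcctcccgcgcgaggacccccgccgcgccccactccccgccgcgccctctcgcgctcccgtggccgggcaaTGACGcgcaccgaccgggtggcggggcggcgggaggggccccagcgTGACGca
Cebpg: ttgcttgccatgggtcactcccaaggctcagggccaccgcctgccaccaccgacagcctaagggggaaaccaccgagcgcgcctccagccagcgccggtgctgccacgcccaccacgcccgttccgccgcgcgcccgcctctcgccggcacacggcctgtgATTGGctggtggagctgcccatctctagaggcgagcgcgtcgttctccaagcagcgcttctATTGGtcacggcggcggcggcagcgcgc
The Cebpa promoter held 1 TTGCG, 185 bases before the start. The Cebpb promoter held 3 matches to TGACG, at 180, 53 and 7 bases before the start. The Cebpg promoter held 2 CCAAT boxes, at 89 and 28 bases before the start. No matches overlapped. Among 32851 promoter windows of the same length, 14.5% held TTGCG, 17.8% held TGACG and 33.9% held CCAAT. These are shares of windows with at least 1 match, without regard to base makeup. The windows shown had 66.4% (Cebpa), 81.6% (Cebpb) and 70.8% (Cebpg) G and C, against a median of 52.4% over all windows. These letters are matches only, and binding was not measured.

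Libraries held 18745379 to 19324461 counts. Of 12344 genes tested, 42.4% changed after exercise (quasi-likelihood test of edgeR, adjusted by the Benjamini-Hochberg method), 21.1% higher and 21.3% lower, and in 22.3% the groups of livers did not overlap (11.7% with Exercise higher and 10.6% with Exercise lower). The split depended on the scaling, since 49.8% of the called genes were higher with trimmed mean of M values (TMM) scaling and 32.1% when only library size was used. By Dixon's criterion Exercise 3 lay far from its group in 2.31% of 11537 genes, against 0.303% to 1.13% for the other livers. Exercise 1 had 106 counts of Myh6, a cardiac myosin gene, where the other exercised livers had 0 and sedentary livers 85 to 212. Counts of Myh6 thus followed the group except in Exercise 1, and the cause was not tested. Calls of members, pairs and lists that changed without these 2 livers are given beside the result. Hepatocyte markers were abundant, with summed levels of 113920 to 153140 CPM (counts scaled by library size and TMM factors) in Sedentary and 138530 to 159260 CPM in Exercise (two-sided exact permutation test, p = 0.0130). Alb and Hnf4a were the 2 of 7 tested that rose. Alb made up 78.7% of this sum in Sedentary and 80.2% in Exercise. The other 6 markers summed to 24057 to 30742 CPM and 27453 to 32010 CPM (exact permutation p = 0.0996, a sum added after the data were seen). The call of Alb was lost with library size alone (0.15, adjusted p = 0.0626, edgeR) and without Exercise 1 or Sedentary 1, 2 or 4 (adjusted p from 0.0509 to 0.0562).

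All 6 members passed the filter on low counts and were tested. Cebpb and Cebpd rose and Cebpa fell, so that 3 of 6 members changed (the background being 42.4% of all genes). Cebpe, Cebpg and Cebpz were not past the threshold. The plot of levels by liver shows all 12 livers for each member, on the scale of TMM-scaled CPM used throughout for single genes.

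**Figure D1:**
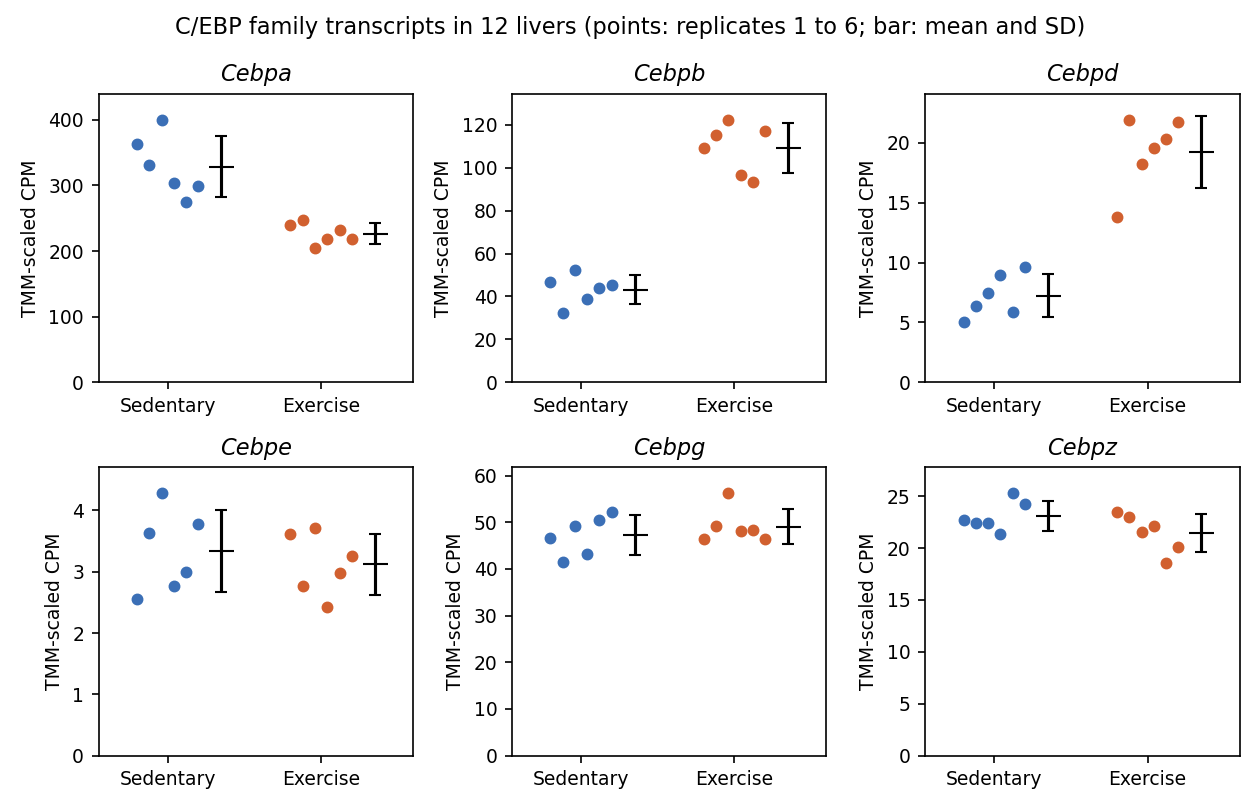
TMM-scaled CPM of the 6 C/EBP genes (vertical axes, each from 0) in 6 Sedentary and 6 Exercise livers, with points for replicates 1 to 6 and a bar for mean and SD. Exercise and Sedentary points are separate for Cebpa, Cebpb and Cebpd and overlap for Cebpe, Cebpg and Cebpz. The groups were separate in 22.3% of all genes tested.

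Cebpa, the family's main factor in resting hepatocytes, lies on chromosome 7 of GRCm38 from 35119293 to 35121928 on the plus strand. Its level was 275 CPM in the lowest, 317 CPM in the median and 400.2 CPM in the highest sedentary liver, and 204, 225 and 248 CPM in the exercised livers. The 6 exercised livers all lay under the lowest sedentary liver. The log2 fold change was -0.54 ± 0.082 (SE, adjusted p = 5.29e-05, edgeR) and ranked 946 among the falls of all genes tested. Sedentary livers were spread more widely (coefficient of variation 14.1%) than exercised livers (7.11%). While Cebpa fell, the summed hepatocyte markers, mostly Alb, were higher, as given above, and the part of cell makeup in the fall was not tested. In whole liver, fewer cells of a type and less RNA per cell cannot be told apart.

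Cebpb, the inducible factor of gluconeogenic and acute phase genes, lies on chromosome 2 from 167688915 to 167690418 on the plus strand. It ran from 32.5 through a median of 44.6 to 52.2 CPM in sedentary livers and from 93.5 through 112 to 122 CPM in exercised livers. The lowest exercised liver was well above the highest sedentary one. The log2 fold change of 1.33 ± 0.10 (SE, adjusted p = 8.69e-08, edgeR) was a 2.52-fold rise and ranked 140 among the rises of all 12344 genes.

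Cebpd, a cytokine- and hormone-induced member that is low in resting liver, lies on chromosome 16 from 15887286 to 15891031 on the plus strand. Its level was 5.05, 6.92 and 9.64 CPM in the lowest, median and highest sedentary liver and 13.8, 19.98 and 21.9 CPM in exercised livers. Exercise 1 was the lowest exercised liver and still lay above all sedentary ones. The log2 fold change was 1.41 ± 0.15 (SE, adjusted p = 6.10e-06, edgeR), a 2.67-fold rise that ranked 123. For Cebpa, Cebpb and Cebpd alike, the exact permutation test gave p = 0.00216, the smallest that 6 livers against 6 allow. Groups of livers that do not overlap give this p, and 22.3% of all genes tested had such groups.

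The other members showed no change past the threshold. Cebpg, the dimer partner, lies on chromosome 7 from 35046422 to 35056573 on the minus strand, 62720 bases from Cebpa. It ran from 41.4 through 47.9 to 52.3 CPM in sedentary and from 46.3 through 48.2 to 56.2 CPM in exercised livers. These ranges overlapped, with only Exercise 3 above all sedentary livers. Its log2 fold change of 0.06 ± 0.067 (SE, adjusted p = 0.531, edgeR) turned to -0.039 when library size alone was used (adjusted p = 0.638, edgeR). The 95% interval from the exact test, which holds the shifts it does not reject, was -0.09 to 0.21 on the log2 scale, and therefore excluded changes of the size seen in Cebpa, Cebpb and Cebpd.

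Cebpz lies on chromosome 17 from 78919006 to 78937066 on the minus strand. It stood at 21.3, 22.6 and 25.3 CPM (lowest, median, highest) in sedentary and 18.6, 21.8 and 23.5 CPM in exercised livers. Only 2 exercised livers lay under all sedentary ones. The log2 fold change of -0.10 ± 0.067 (SE, adjusted p = 0.226, edgeR; 95% interval of the exact test -0.25 to 0.04) became -0.20 with library size alone (adjusted p = 0.0248, edgeR), and this was the only setting of the count test that called it.

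Cebpe, the granulocyte member, lies on chromosome 14 from 54710360 to 54712174 on the minus strand. It had 44 to 84 counts per liver, which made 2.55, 3.31 and 4.28 CPM in sedentary and 2.42, 3.12 and 3.71 CPM in exercised livers. The ranges overlapped over most of their length. The log2 fold change was -0.09 ± 0.15 (SE, adjusted p = 0.643, edgeR), with a 95% interval of -0.37 to 0.23 from the exact test. Of 11 neutrophil and granulocyte precursor markers, 2 had enough counts to test (Csf3r and Cxcr2). Of these, 0 were called by edgeR (against 42.4% of all genes), at an unadjusted p under 0.05 or by DESeq2. The other 9, among them the defining Elane, Mpo, S100a8 and S100a9, had group means of 0 to 0.243 CPM, and the 11 summed to 3.21 to 5.17 CPM in Sedentary and 3.50 to 5.85 CPM in Exercise.

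**Figure D2:**
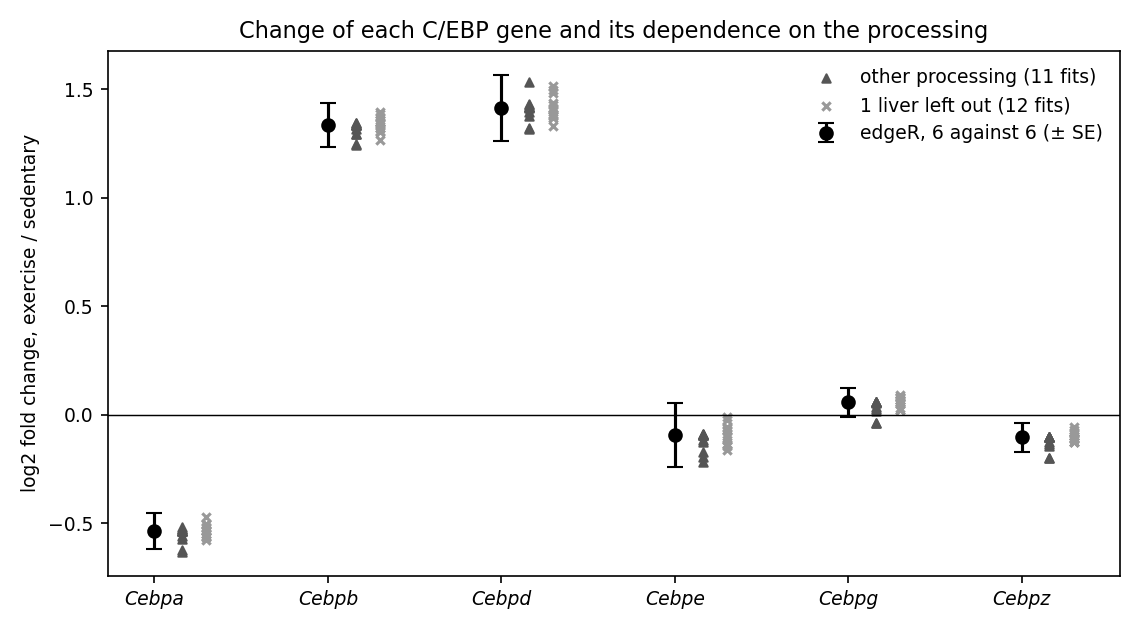
log2 fold change (vertical axis, Exercise over Sedentary) of each C/EBP gene from edgeR with its SE (circles), under 11 other ways of processing (triangles, with the fit without Exercise 1 and 3 among them) and with each of the 12 livers left out (crosses). Cebpb and Cebpd stay at 1.24 or more and Cebpa stays below 0 in each fit, while Cebpg has values on either side of 0.

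Markers of other cells that use C/EBP factors were set beside the rises of Cebpb and Cebpd. Of 11 macrophage and Kupffer cell markers 0 were called by edgeR, at an unadjusted p under 0.05 or by DESeq2, and they summed to 116 to 197 CPM in Sedentary and 141 to 211 CPM in Exercise (exact permutation p = 0.377). The adipocyte list summed to 9.48 to 13.2 CPM in Sedentary and 13.8 to 20.1 CPM in Exercise (exact permutation p = 0.00216), nearly all of it Fabp4, a fatty acid carrier also found in endothelium, while Adipoq, Plin1, Retn and Cfd had group means of at most 0.0251 CPM. The 7 endothelial markers summed to 124 to 163 CPM and 138 to 203 CPM, with Pecam1 and Lyve1 higher and Kdr lower. Of 7 stellate cell markers, Lrat and Des were lower and 0 were higher, also at an unadjusted p under 0.05 and by DESeq2. Lymphocyte and cholangiocyte lists had 0 called genes among 3 and 5 tested, by the same 3 counts. Of all genes tested, 42.4% were called by edgeR, 21.1% higher and 21.3% lower. The part of these cells in the changes of Cebpb and Cebpd was not tested.

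The makeup of the family's RNA changed while its total did not detectably change. Levels of different genes were compared per length, as TPM (the deposited FPKM of a library scaled to a fixed sum). The 6 members summed to 285 ± 33.8 TPM (SD, n = 6) in Sedentary and 288 ± 19.1 TPM (SD, n = 6) in Exercise. This was a log2 difference of 0.02 (exact permutation p = 0.831), with a 95% interval of -0.16 to 0.19. With the TMM factors applied to these values the log2 difference was 0.11 (exact permutation p = 0.139, interval -0.04 to 0.27), an alternative added after the data were seen. Cebpa made up 71.1% ± 3.19 of the sum (SD, n = 6) in Sedentary and 46.4% ± 3.15 in Exercise, with no overlap between 67.0% to 75.1% and 41.3% to 49.9%. Cebpb rose from 16.5% ± 2.03 to 39.2% ± 3.01, and its lowest exercised share of 35.3% was above the highest sedentary share of 18.9%. Cebpd rose from 1.85% ± 0.529 to 4.62% ± 0.736. These 3 shares differed with p = 0.00433 in the exact permutation test after adjustment over 6 members.

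The mean shares of the 3 uncalled members were 5.73% and 5.59% for Cebpg, 3.26% and 2.82% for Cebpz, and 1.57% and 1.39% for Cebpe (Sedentary, then Exercise). None passed the threshold (adjusted exact permutation p = 0.703, 0.101 and 0.262), although Cebpz passed without Sedentary 3, with a difference of -0.564 percentage points and adjusted exact p = 0.0162. Shares of a sum are not independent of each other.

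**Figure D3:**
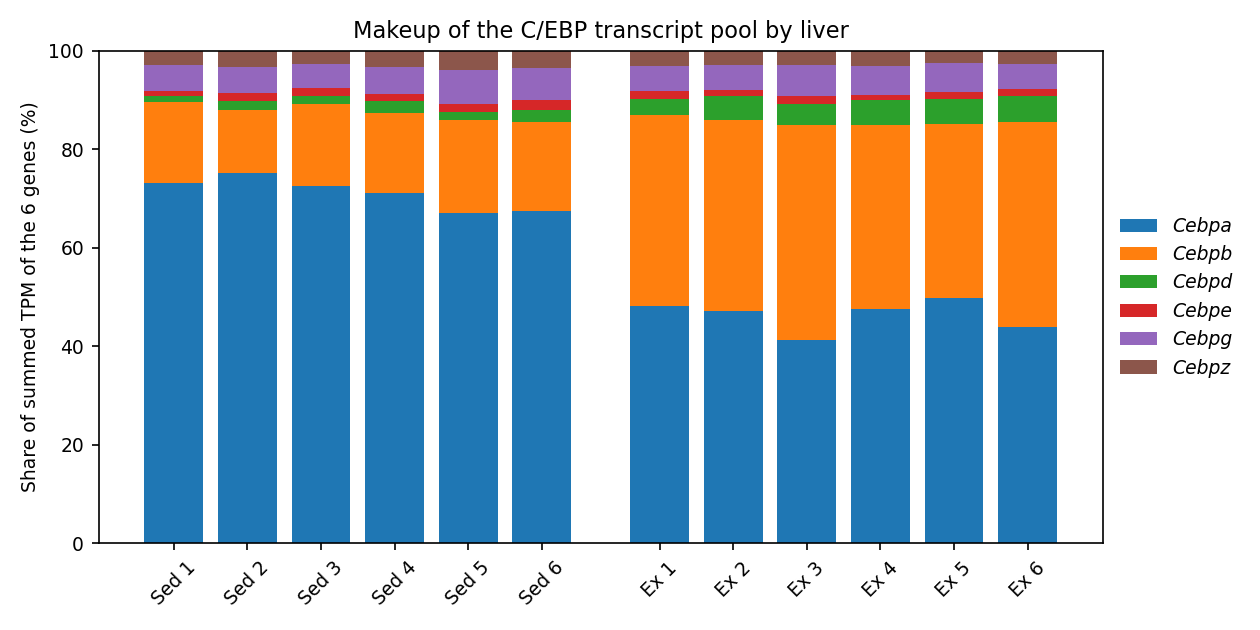
Share of each gene in the summed TPM of the 6 C/EBP genes (vertical axis, %) in each liver (Sed, Sedentary; Ex, Exercise; number, replicate). The Cebpa part shrinks from a mean of 71.1% to 46.4% and the Cebpb part grows from 16.5% to 39.2%.

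The order of the levels within a liver also changed. In the 6 sedentary livers Cebpa (164 to 239 TPM) stood above Cebpb (36.7 to 55.0 TPM), then Cebpg (14.3 to 18.5 TPM) and Cebpz (8.24 to 9.91 TPM), without overlap between neighbours. Cebpd (3.77 to 7.14 TPM) and Cebpe (3.55 to 5.57 TPM) overlapped at the bottom. In the exercised livers Cebpa (114 to 152 TPM) and Cebpb (98.7 to 124 TPM) overlapped, and Cebpd (9.56 to 15.7 TPM) reached the range of Cebpg (15.0 to 17.4 TPM). Cebpz exceeded Cebpd in 6 of 6 sedentary livers and in 0 of 6 exercised livers.

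The Cebpb level per Cebpa level gives this change liver by liver. It was 0.234 ± 0.0380 (SD, n = 6, TPM over TPM) in Sedentary, from 0.173 in Sedentary 2 to 0.282 in Sedentary 5. In Exercise it was 0.852 ± 0.127, from 0.708 in Exercise 5 to 1.06 in Exercise 3. Exercise 3 was the only liver with more Cebpb than Cebpa. Cebpd per Cebpa went from 0.0262 ± 0.00812 to 0.0999 ± 0.0167 (SD, n = 6), with the lowest exercised value of 0.0674 in Exercise 1.

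**Figure D4:**
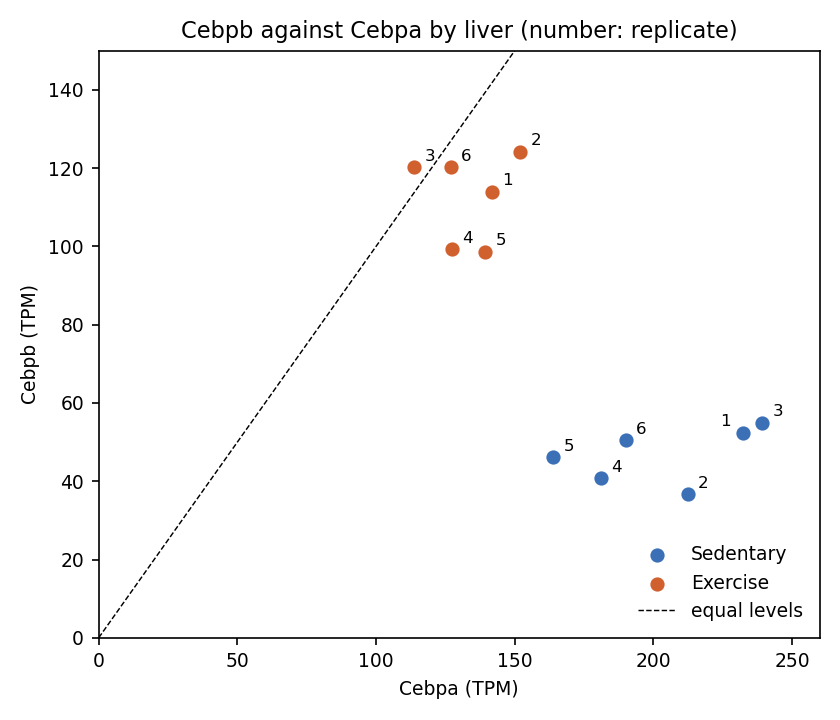
Cebpb (vertical axis, TPM) against Cebpa (horizontal axis, TPM) in each liver, with the replicate number and a dashed line of equal levels. Sedentary livers lie at the lower right and exercised livers at the upper left, and only Exercise 3 is above the line.

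Each pair of members was compared within livers, where scaling between libraries enters only through the pseudocount. The difference between groups in the log2 ratio of CPM + 0.5 was tested for 15 pairs, with p-values adjusted over them, and 11 pairs differed. The Cebpa to Cebpb ratio moved by -1.86 ± 0.13 (SE) and that of Cebpa to Cebpd by -1.90 ± 0.21. Both had adjusted p = 0.00361 in the exact permutation test. The ratio of Cebpa to the uncalled members was also lower, by a log2 difference of -0.59 for Cebpg (adjusted exact p = 0.00361), -0.45 for Cebpe (adjusted exact p = 0.0148) and -0.42 for Cebpz (adjusted exact p = 0.0130). The last 2 were no longer past the threshold without Exercise 1 and 3 (adjusted exact p = 0.0655 and 0.0584).

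Cebpb and Cebpd were not shown to respond differently. Their ratio moved by -0.04 ± 0.20 (SE, adjusted exact p = 0.851), but the 95% interval of -0.52 to 0.44 also allows differences of that size. The ratio of Cebpg to Cebpz moved by 0.16 (adjusted exact p = 0.0758, interval -0.02 to 0.34), and passed without Exercise 1 (0.20, adjusted exact p = 0.0236) and without Exercise 1 and 3 (0.17, adjusted exact p = 0.0429). Cebpe to Cebpg (-0.13, interval -0.42 to 0.16) and Cebpe to Cebpz (0.03, interval -0.30 to 0.37) did not pass.

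Relations between members were then examined across the 6 livers of each group, kept separate because the groups form separate clusters. Among 30 relations (15 pairs in 2 groups), 0 passed the threshold by Pearson's r or Spearman's rho, before or after adjustment. The closest was Cebpb with Cebpg in Sedentary (r = 0.789, exact permutation p = 0.0597; rho = 0.543, exact p = 0.297; adjusted p = 0.992 and 0.973), where r was 0.675 without the 2 livers farthest from the median of Cebpb. In Exercise the same pair gave r = 0.427 (exact p = 0.458). Cebpa and Cebpb, which moved in opposite directions between the groups, gave r = 0.378 in Sedentary (exact p = 0.479) and r = -0.243 in Exercise (exact p = 0.603). Over the 15 pairs, r was positive in both groups for 7 and of opposite sign for 5. With 6 livers a group, only strong relations could have been seen.

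Partners of C/EBP proteins were counted from a list of 20 bZIP genes, 17 of which were tested. Among them 7 rose and 2 fell (52.9%, against 42.4% of all genes), with a median log2 fold change of 0.14, against -0.003 over all genes tested. With library size alone the calls were 5 higher and 5 lower, and without Exercise 1 and 3 they were 5 higher and 3 lower. Nfil3, a repressor of the same DNA motif as the PAR bZIP factors, rose from 33.4 ± 4.45 to 63.2 ± 3.02 CPM (SD, n = 6; log2 fold change 0.92, adjusted p = 1.08e-07, edgeR). The AP-1 genes Junb (1.52), Fosl2 (0.67) and Fos (2.22, from a mean of only 0.299 CPM) also rose. Of the PAR bZIP factors, which follow the clock, Tef rose by 0.40 and Dbp fell by 0.62 on the log2 scale. The remaining PAR bZIP gene of the list, Hlf, named after its value was seen, was not past the threshold (-0.15, adjusted p = 0.0859, edgeR), but passed with library size alone (-0.25, adjusted p = 0.00713) and without Sedentary 3 (-0.20, adjusted p = 0.0140).

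Ddit3 and Atf4 are stress-response partners of C/EBP proteins. Ddit3 (CHOP), which forms dimers with C/EBP proteins that do not bind classic sites, went from 6.73 ± 1.01 to 8.22 ± 0.530 CPM (SD, n = 6; log2 fold change 0.29, adjusted p = 0.0228, edgeR). This call was lost without Sedentary 3 (0.26, adjusted p = 0.0520, edgeR) or Sedentary 6 (0.26, adjusted p = 0.0537) and with library size alone (0.19, adjusted p = 0.150). Atf4, an activator of amino acid stress genes, fell from 101 ± 13.1 to 83.0 ± 4.12 CPM (SD, n = 6; log2 fold change -0.28, adjusted p = 0.00497, edgeR).

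Regulators of C/EBP genes or proteins came from a list of 30 symbols, which held Cop1 under both its older and its newer symbol. The 29 symbols in the table were all tested. Among them 17 rose and 2 fell (65.5%, against 42.4% of all genes), with a median log2 fold change of 0.26. With library size alone 14 rose and 3 fell, and without Exercise 1 and 3, 16 rose and 2 fell. As for the other lists, the genes were chosen with earlier results of these data known. The part of that choice in the share called was not tested. Trib1, the pseudokinase that brings the ubiquitin ligase COP1 to C/EBPα, went from 29.7 ± 3.33 to 53.3 ± 3.51 CPM (SD, n = 6; log2 fold change 0.84, adjusted p = 1.40e-07, edgeR). The groups did not overlap for Trib1, whose highest sedentary liver had 33.4 CPM and lowest exercised liver 50.4 CPM. Creb1, the cAMP-responsive activator of Cebpb, rose by 0.61 on the log2 scale (adjusted p = 2.10e-06, edgeR). Ppargc1a, the coactivator of gluconeogenesis and itself a CREB target, rose from 8.89 ± 2.68 to 32.6 ± 5.01 CPM (SD, n = 6).

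Foxo1, a partner of C/EBPα and C/EBPβ on gluconeogenic promoters, rose by 1.05, the deacetylase Sirt1 by 0.78 and the general activator Sp1 by 0.51 on the log2 scale. The 2 regulators that fell, named after their values were seen, were Mtor (-0.24) and the translation initiation factor gene Eif2s1 (-0.29). Zfp638, a zinc finger coactivator of C/EBP proteins, went from 14.6 ± 1.38 to 17.5 ± 0.966 CPM (SD, n = 6; log2 fold change 0.26, adjusted p = 0.00589, edgeR), and was not past the threshold with library size alone (0.16, adjusted p = 0.0917).

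**Figure D5:**
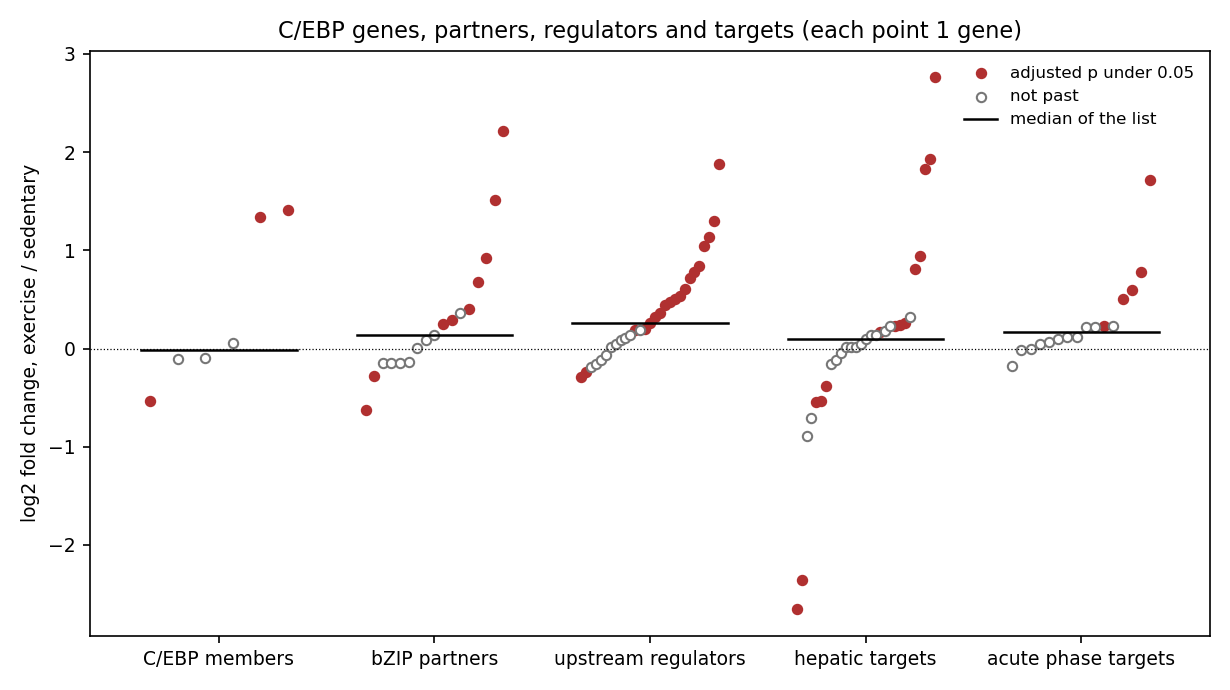
log2 fold change (vertical axis, Exercise over Sedentary) of each tested gene in the C/EBP family and the 4 related lists, with filled points for adjusted p under 0.05 (edgeR) and a line at the median of the list. The upstream regulators have the highest median, at 0.26, and the hepatic targets extend from -2.65 to 2.76. The lists were chosen with earlier results of these data known.

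Of 29 known hepatic C/EBP targets tested, 9 rose and 5 fell (48.3%, near the 42.4% of all genes), with a median log2 fold change of 0.09. With library size alone 5 rose and 7 fell, and without Exercise 1 and 3, 6 rose and 5 fell. Tat, the enzyme that starts tyrosine breakdown, went from 1570 ± 278 to 5567 ± 305 CPM (SD, n = 6; log2 fold change 1.83, adjusted p = 1.03e-09, edgeR). G6pc, the last step of glucose release, rose by 0.81, and Igfbp1, a secreted binder of insulin-like growth factors, rose by 2.76 on the log2 scale. Angptl8, Fasn, Gys2 and Scd1 were among those that fell, of which Gys2 (-0.38) and Scd1 (-0.53) were named after their values were seen. Fasn, the fatty acid synthase, fell by 2.36 on the log2 scale.

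Angptl8, an inhibitor of lipoprotein lipase action on triglycerides and the target examined in the study, was at 104, 146 and 354 CPM in the lowest, median and highest sedentary liver and at 23.4, 30.3 and 40.0 CPM in exercised livers. Its log2 fold change was -2.65, and the groups did not overlap. Relations between Angptl8 and each member were added after the values were seen. Among 12 relations 0 passed, before or after adjustment, and Cebpa gave r = 0.577 in Sedentary (exact permutation p = 0.233; rho = 0.600, exact p = 0.242) and r = 0.506 in Exercise (exact p = 0.304; rho = 0.314, exact p = 0.564). The smallest adjusted p was 0.714 (exact test).

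Acute phase targets, which C/EBPβ and C/EBPδ are known to activate in inflammation, were represented by 16 tested genes. Of these, 5 rose and 0 fell (31.2%, against 42.4% of all genes, edgeR), with 0 lower also at an unadjusted p under 0.05 and by DESeq2. Without Exercise 1 and 3, 3 were called. Lcn2, which binds bacterial siderophores, went from 6.44 ± 1.35 to 21.1 ± 8.82 CPM (SD, n = 6; log2 fold change 1.71, adjusted p = 0.000361, edgeR). The heme and hemoglobin carriers Hp (0.60) and Hpx (0.23) and the pattern recognition protein Crp (0.50) also rose, Hpx not with library size alone (0.14, adjusted p = 0.0870, edgeR). Orm3 was called at 0.78 (adjusted p = 0.0331, edgeR), but not when Exercise 1, 3, 4 or 6 or Sedentary 1, 2 or 3 was left out (adjusted p from 0.0527 to 0.0709). Orm3 has near copies in Orm1 and Orm2, so its reads are uncertain. Saa1, Saa2 and Saa3, also near copies of each other, stood at 0.22, -0.18 and 0.00 on the log2 scale (edgeR, adjusted p = 0.608, 0.719 and 1.00).

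Genes beside the members were examined because reads could be shared where genes overlap. Tmem189 overlaps Cebpb on the opposite strand and had a log2 fold change of 0.13 (adjusted p = 0.327, edgeR), against 1.33 for Cebpb. Spidr overlaps Cebpd on the opposite strand, at 0.22 (adjusted p = 0.186, edgeR), against 1.41. Cebpzos overlaps Cebpz, at -0.02 (adjusted p = 0.857, edgeR). Whether reads were counted by strand is not given in the sources used here. How far these pairs share reads in the overlap was not tested. The antisense Gm45091 overlaps Cebpa, and Gm44836, Gm45094 (same strand) and Gm45095 (opposite strand) overlap Cebpg. None of these was analysed here. Counts of Cebpd, Cebpg and Cebpz were not whole numbers in 12 of 12 livers, as an estimate that splits reads between genes gives. Those of Cebpb were not whole in 1 liver (Exercise 1, 1997.8), and those of Cebpa and Cebpe were whole in all 12.

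Among 13 tested neighbours that are no members, 0 rose, 6 fell and 7 were not past the threshold (46.2% called, near the 42.4% of all genes, of which 21.3% were lower, edgeR). Pepd, 1714 bases from Cebpg, had a log2 fold change of -0.06 (adjusted p = 0.458, edgeR). Eif2ak2, the interferon-induced kinase PKR beside Cebpz, fell by 0.48, and the amino acid transporter gene Slc7a8 beside Cebpe fell by 0.77. Pkp2 beside Cebpd (-0.34), Ube2v1 beside Cebpb (-0.19) and Ndufaf7, 70 bases from Cebpz (-0.26), also fell. Mzt2 beside Cebpd (-0.27, adjusted p = 0.0448, edgeR) kept its call without Exercise 2, Exercise 5 or Sedentary 1, and had adjusted p from 0.0506 to 0.0971 when any of the other livers was left out. The count of neighbours that rose was also 0 at an unadjusted p under 0.05 and by DESeq2.

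The genes most like each member were ranked by Pearson's r over 12 livers after each group mean was subtracted, among 11536 genes, so the values are the highest of many and are a description. Cebpa was most like Dhx58 (r = 0.949) and Rnf213 (r = 0.926), both interferon-induced genes, then Med29 (r = 0.922), a Mediator subunit. Dhx58, Rnf213 and Med29 all fell between groups, with log2 fold changes of -0.88, -0.60 and -0.24. Cebpb was most like Dennd6a (r = 0.875), Kat6a (r = 0.873) and Pafah1b1 (r = 0.867). Cebpd was most like Ccnl1 (r = 0.928), Arap3 (r = 0.909) and Me3 (r = 0.890), and Cebpg was most like Arhgap18 (r = 0.935), Ubl3 (r = 0.907) and Sall1 (r = 0.904). Cebpe was nearest to Slx4 (r = 0.891), Lipg and Slc51b, and Cebpz to Larp7 (r = 0.879), Actr3 and Zfp946. No gene was among the 3 nearest of more than 1 member.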

How the data were processed

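The authors deposited, for 12 liver libraries, estimated counts per gene that are not scaled between libraries (31.3% not whole numbers) and FPKM values scaled for length and depth. The submitters' processing notes name the build mm10 (GRCm38), Bowtie2 2.3.4.3 and RSEM 1.3.1. Groups came from the sample labels. Estimated counts were rounded and passed to edgeR 4.0.16 under R 4.3.3 (filterByExpr minimum count 10, TMM scaling, robust quasi-likelihood fit, Benjamini-Hochberg threshold 0.05). SEs are the log2 fold change divided by the square root of F. Exact permutation tests were two-sided, over 924 relabellings of mean log2(CPM + 0.5) for groups and 720 pairings for correlations. Python 3.11.15 with scipy 1.17.1 did the rest. Of 66 library pairs 0 were identical, and p-values measure the spread between these livers. Counting error is small at these depths except for genes with few counts.

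Members and gene lists, written by hand, were chosen with earlier results of these data known. Named were the members, at most 6 genes of smallest p a list, Angptl8, Trib1, Zfp638, Ddit3, Atf4, neighbours by GENCODE M21 and the 3 most alike genes a member. A gene that this rule names is not reported here. Saa1, Saa2 and Saa3 were named after their values were seen. The plan also held the 3 genes of largest p in each of these lists, of which only Saa2 and Saa3 are named. Genes named from the lists are therefore mostly called ones. Alternatives were RLE, upper quartile, library size, Rplp0 scaling, other filters, DESeq2 1.42.0, limma 3.58.1 (voom and log2(FPKM + 0.1)), a replicate block and omitted livers. Tests were tried on simulated data.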

Additional observations from a re-analysis of the deposited data

Results flagged for a closer look

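Cebpg in Exercise 3 was the highest of its group at 56.2 CPM, and 49.1 CPM was the next value. This gap was 0.721 of the range of the 6 exercised livers, above Dixon's 95% critical value for 6 samples. Chance gives about 1 such liver in 20 groups, and 12 groups were examined. Without Exercise 3 the log2 fold change of Cebpg was 0.02.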

How the results depend on the processing

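The changes of Cebpa, Cebpb and Cebpd kept their direction and stayed past the threshold under the 11 other fits (-0.63 to -0.52, 1.24 to 1.34 and 1.32 to 1.53 on the log2 scale) and with each liver left out (-0.58 to -0.47, 1.26 to 1.40 and 1.33 to 1.52), with adjusted p of at most 0.000407 in edgeR, DESeq2 or limma. Cebpg was reversed with library size alone (-0.039) and with limma on log2 FPKM + 0.1 (-0.037), and Cebpz passed in both (-0.20 and -0.20). Acute phase targets called were 3 without Exercise 1 and 3, chosen after seeing the data for the lists, pairs and shares. The ratio of Cebpb to Cebpd was reversed with a pseudocount of 1 (0.0077) and ranged from -0.13 to 0.073 with each liver left out. That of Cebpe to Cebpz was -0.040 without Exercise 1 and 3 and ranged from -0.028 to 0.11. The Cebpg share was reversed when counts were not divided by length (0.955 points) and ranged from -0.302 to 0.0723 points. Cebpzos ranged from -0.064 to 0.032. The causes were not tested.

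With the replicate number as a block, 3 members were called, as without it, and 4956 genes against 5229. Acute phase targets called went from 5 to 4, as Orm3 was lost (0.72, adjusted p = 0.104, edgeR), and no other named call changed. Same-numbered livers correlated at -0.0990 to 0.160 in their deviations, 2 of 6 over 0.1, and 2 of 6 sedentary livers correlated best with their own number, so the numbers were not taken as pairs.

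Cebpe, at 44 to 84 counts, is the member most limited by depth.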
